A study of Mus musculus with 6 samples.

Results

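The 38 genes described here encode actins, the proteins that bundle actin into stress fibres, the proteins of focal adhesions, and the transcription factor Srf. They were taken from a list drawn up by function with earlier results of these arrays in view, so the shRNA against control contrast had a part in the choice. The probe set of each gene was chosen by its signal: each gene was represented by its brightest probe set, the one with the highest mean over all 6 arrays among the probe sets that name a single gene. All 38 were on the array, of 18193 genes with such a probe set, and 37 of them were bright enough to be tested; Fhl3 was not. The cells were R1 mouse embryonic stem cells, kept undifferentiated with leukaemia inhibitory factor in serum medium. In 3 samples they stably expressed a short hairpin RNA (shRNA) against Pcl2, a Polycomb-like protein whose gene is Mtf2, and in 3 samples a mismatch control sequence, so the cells of both groups were stably transfected with a hairpin sequence. All shRNA samples came from 1 clone, which means that the hairpin and the clone cannot be told apart; the labels do not say how many clones gave the control samples. By their labels the samples within a group are biological replicates, and the p-values measure the spread between those cultures.

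Values are the authors' MAS5 signals, an intensity per probe set in arbitrary units, given for replicates 1, 2 and 3 in that order or as mean ± SD (n = 3 arrays per group). Changes are given as log2 fold changes (shRNA cells over control cells), computed on log2(signal + 7), with a standard error (SE). They were tested with limma across 13095 genes, and adjusted p-values are Benjamini-Hochberg values over all of those genes. A gene is said to have risen or fallen only where the adjusted p was below 0.05. Signals of different probe sets are not compared with each other, and a sum over a list is compared only between arrays, since probe sets differ in brightness for reasons other than RNA amount.

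Mtf2 signal in the shRNA cells was 59.7% of the control level (1723 ± 220 in control and 1028 ± 150 in shRNA cells, log2 -0.74, SE 0.17, adjusted p = 0.0157). The Mtf2 call did not hold when mismatch control replicate 1 was left out (adjusted p = 0.0519) or Pcl2 shRNA replicate 3 (0.0574), in a range of 0.005 to 0.0574 over the alternatives. Each array's mean signal after trimming was the same, 150.001, and arrays correlated at 0.965 to 0.974 within groups and at 0.943 to 0.962 between them. Embryonic stem cell identity was checked on 13 marker genes, all 13 bright enough to be tested. By limma 7 rose and 0 fell, where 4.46% of all genes tested rose and 8.16% fell. At an unadjusted p below 0.05, 9 were higher and 0 lower. The summed signal of the 13 was 21897 to 28314 in control and 37575 to 43709 in shRNA arrays. The Actb control probe sets gave a ratio of 3′ to 5′ signal, a measure of RNA integrity, of 1.14 to 1.22 in control and 1.18 to 1.33 in shRNA arrays, and those of Gapdh gave 0.807 to 0.823 and 0.799 to 0.821.

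Actin exists as soluble monomers and as filaments. In adherent cells filaments are bundled by alpha-actinin, filamin and palladin, pulled by myosin II, and anchored at focal adhesions, where talin, vinculin, paxillin and the kinase-like protein Ilk couple them to integrins. The transcription factor Srf reads this state: its coactivators of the MRTF family are held by actin monomers and released when filaments form, and many genes of the actin cytoskeleton, Srf among them, carry binding sites for Srf called CArG boxes. Embryonic stem cells grow as compact colonies, and stress fibres become prominent as cells spread and differentiate.

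Of the 37 genes tested, 22 fell, 0 rose and 15 did not pass. The share that fell was 59.5%, against 8.16% of all genes tested. The genes were listed with earlier results of the same arrays known, so the count describes the list and is no independent evidence about it. At an unadjusted p below 0.05, 26 were lower and 1 was higher. Their median log2 fold change was -0.92, beside a median of 0.02 over all genes. Of the 22, 17 fell by at least 2-fold, 7 by at least 4-fold and 5 by at least 8-fold (5.26%, 1.31% and 0.359% of all genes). The 5 were Phldb2, Acta1, Myl9, Flnc and Parva. Some or all of their shRNA signals lay near or below 20.3, the background level explained below, which limits these folds. In 27 of the 37 the highest shRNA array was lower than the lowest control array (73.0%, against 16.7% of all genes), and in 1, Lima1, every shRNA array lay above (14.5% of all genes). Groups of 3 against 3 arrays cannot give an exact two-sided permutation p below 0.1. With the replicate number as a block, 27 fell and 1 rose (13.8% and 9.97% of all genes): Actg2, Myh9, Srf, Pdlim5 and Pfn1 joined the genes that fell, and Lima1 was the gene that rose.

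**Figure D1:**
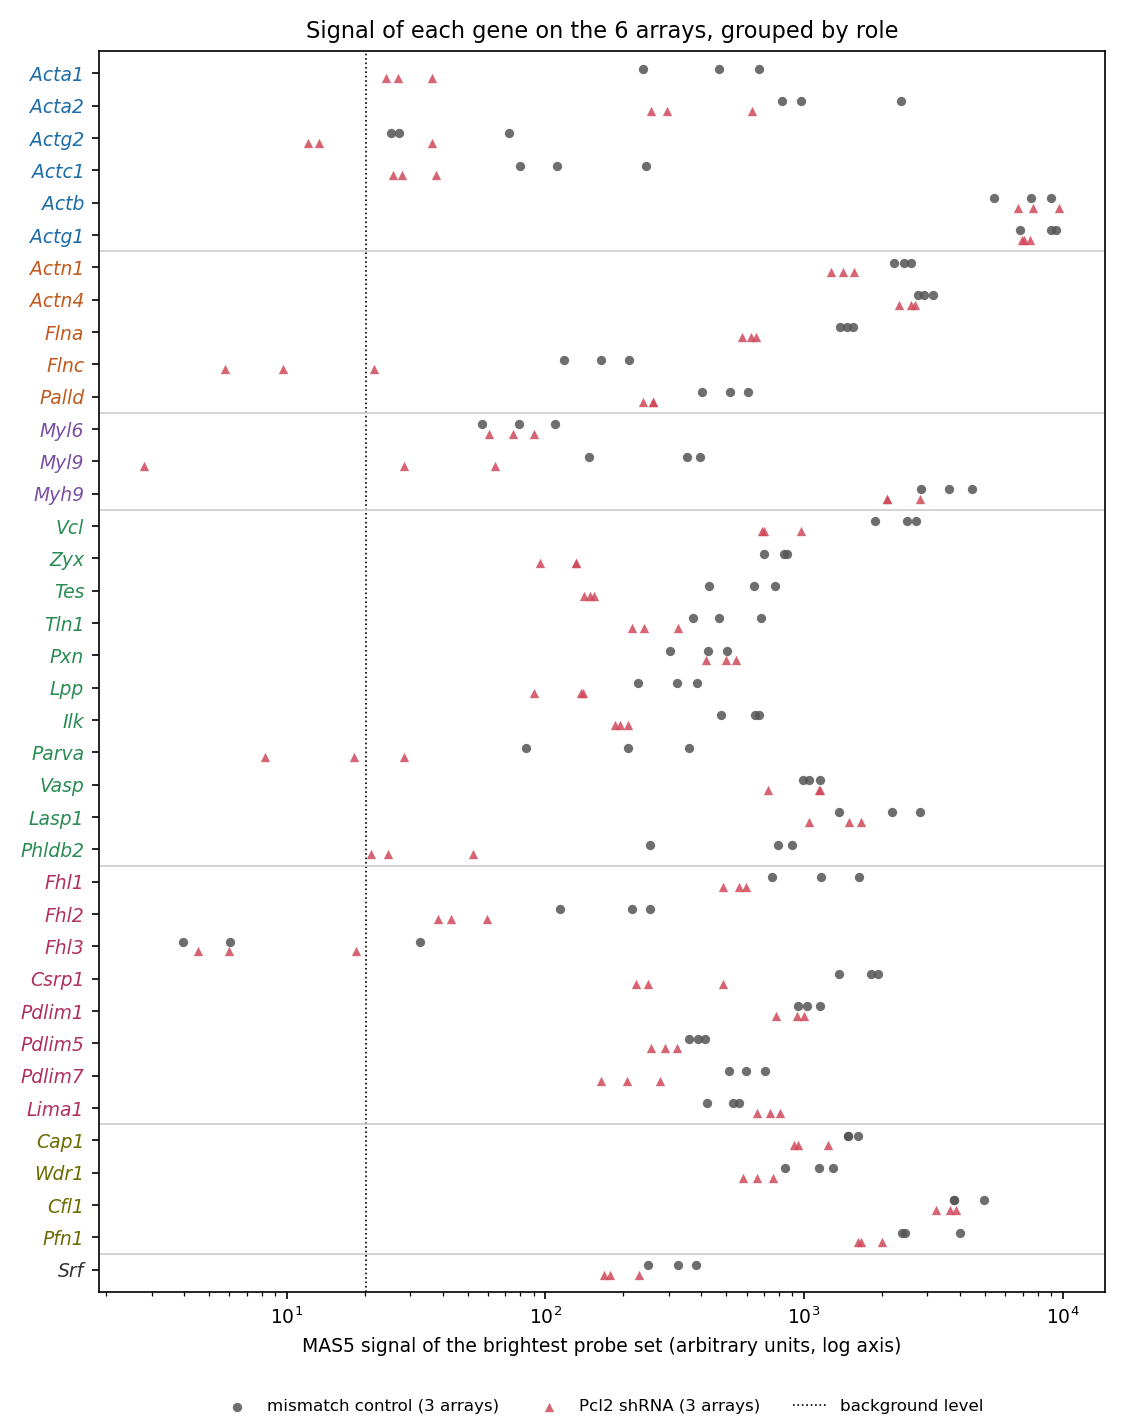
MAS5 signals (log axis) of the brightest probe set of each of the 38 genes on the 3 control arrays (grey circles) and the 3 Pcl2 shRNA arrays (red triangles), with gene names ordered and coloured by role; the dotted line marks the background level of 20.3. The groups are apart for Acta1, Flnc, Zyx, Phldb2 and others, and overlap for Actb, Actg1, Vasp, Pxn and Cfl1.

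In total RNA from a culture, fewer cells with a transcript and less of it per cell cannot be told apart. Markers of other cell types were therefore measured on the same arrays. Of the 16 fibroblast markers, Dcn, Lum and Fap were at or below background (a signal of 20.3, the highest value on any array among bacterial control probes for which no RNA was added) on all 6 arrays. Of the 11 that were tested, Twist2 fell and 10 did not pass, Col1a1 among them with 136 ± 99.9 and 51.8 ± 68.4 (adjusted p = 0.167). At an unadjusted p below 0.05, 2 of the 11 were lower and 0 higher, and their median log2 fold change was -0.49. The summed signal of the list was 2063 to 4505 in control and 1289 to 3159 in shRNA arrays. Vim, which is included in that sum, had 2974, 2148 and 1447 on control and 2165, 1770 and 865 on shRNA arrays. Among 8 smooth muscle markers, Myh11, the defining myosin, was at background on all 6 arrays, and Cnn1 and Smtn fell (summed signal 630 to 699 and 176 to 279). Cnn1 and Smtn are counted again below among the further targets of Srf and MRTF. Of 12 striated muscle markers 7 were tested and 0 passed by limma (2 were higher and 1 lower at an unadjusted p below 0.05), with Myf5 and Tnni1 at background on all 6 arrays and a summed signal of 346 to 383 and 289 to 414. Of 7 trophectoderm and simple epithelium markers tested, 5 fell: the keratins Krt8, Krt18, Krt19 and Krt7, and Cdx2. Eomes (log2 -1.03, adjusted p = 0.0992) and Tfap2c (log2 0.51, adjusted p = 0.108) did not pass. At an unadjusted p below 0.05, 6 were lower and 1 was higher. The summed signal went from between 5218 and 10048 to between 1127 and 1535, and Gata3 was at background on all 6 arrays. Of 6 primitive endoderm markers tested, Dab2, Col4a1 and Sparc fell and Lama1 rose (summed signal 2795 to 4272 and 1477 to 1832, Afp at background throughout). Gata4 (log2 0.003, adjusted p = 0.996) and Gata6 (log2 0.034, adjusted p = 0.951) did not pass. Sox17, Sox7 and Pdgfra were too dim to be tested. The part of any of these cell types in the changes of the actin genes was not tested. The labels' growth protocol names no feeder cells.

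Promoter sequences were examined because many genes of the actin cytoskeleton, though not all, carry Srf binding sites near the start. Windows of 250 bases before a RefSeq start site (GRCm38.p6) were available for 34 of the 38 genes, 44 windows in all. The CArG box was searched as an exact 10-base match: CC, then only A or T, then GG. This pattern reads the same on both strands. Boxes with a G or C among the inner bases were not counted, for example ccctatatgg in the Acta2 window. It occurred in at least 1 window of 10 of the 34 genes (29.4%), against 1.62% of the 27025 genes in the table and 1.47% of all 32851 windows. The 12 boxes are shown with 10 bases on each side, 5′ to 3′ along the gene, with the box in capitals.
Acta1 (chr8:123894829-123894858, minus strand): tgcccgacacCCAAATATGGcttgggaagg
Actc1 (chr2:114052903-114052932, minus strand): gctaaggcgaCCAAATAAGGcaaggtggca
Actg1 (chr11:120348566-120348595, minus strand): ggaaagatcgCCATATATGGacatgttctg
Myl9 (chr2:156775293-156775322, plus strand): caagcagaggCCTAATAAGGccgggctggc
Myl6 (chr10:128493040-128493069, minus strand): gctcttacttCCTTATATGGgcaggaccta
Vcl (chr14:20929161-20929190, plus strand): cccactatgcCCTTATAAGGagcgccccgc
Fhl1 (chrX:56779571-56779600, plus strand): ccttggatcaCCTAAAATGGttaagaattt
Fhl2 (chr1:43163973-43164002, minus strand): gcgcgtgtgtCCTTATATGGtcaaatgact
Fhl2 (chr1:43196838-43196867, minus strand): catttagagaCCAAAAAAGGcttgcaggag
Lima1 (chr15:99820177-99820206, minus strand): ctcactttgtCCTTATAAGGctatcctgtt
Srf (chr17:46556225-46556254, minus strand): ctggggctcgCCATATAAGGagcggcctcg
Srf (chr17:46556205-46556234, minus strand): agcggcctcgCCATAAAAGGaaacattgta
Vcl and Lima1 carry the same 10 bases, and so do Myl6 and one of the Fhl2 starts, although Vcl fell and Lima1 and Myl6 did not. The boxes start between 31 bases (Fhl2) and 227 bases (Vcl) before the start site. A match is a description of these letters, not a shown binding site.

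**Figure D2:**
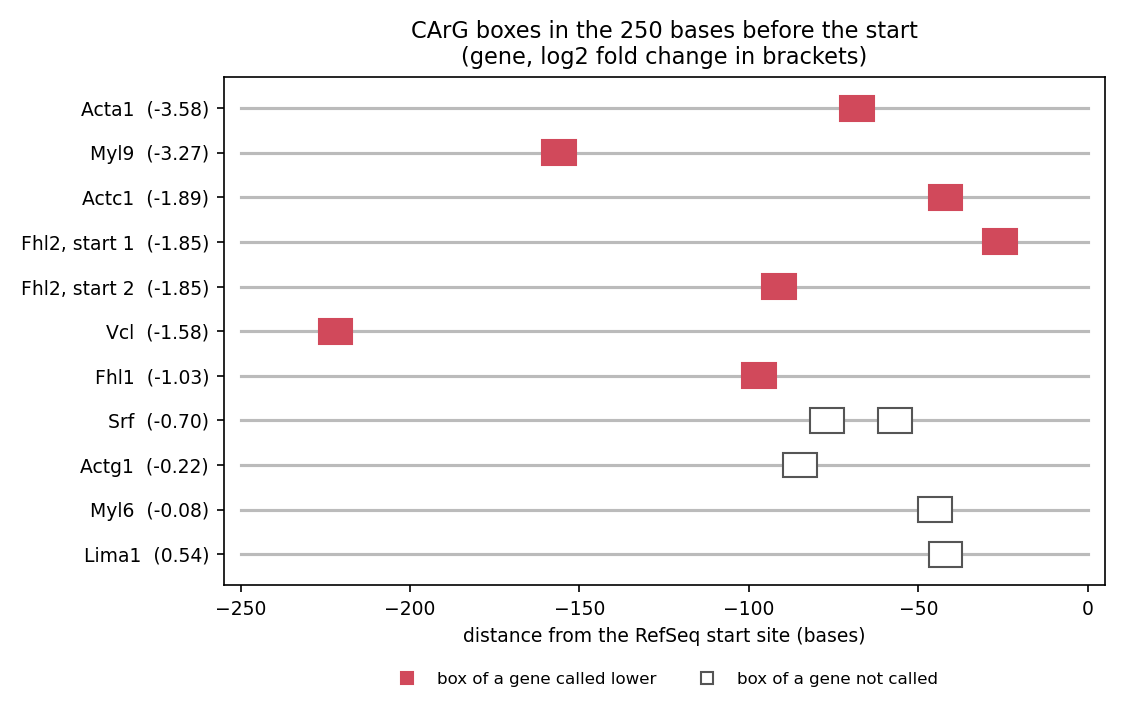
Position of each CArG box (rectangle, drawn to its 10-base length) in the 250 bases before the RefSeq start site, 1 line per start, ordered by log2 fold change, which is given in brackets; filled boxes belong to genes that fell, open boxes to genes that did not pass. Boxes lie within about 100 bases of the start except in Myl9 and Vcl, and occur in genes of either kind.

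The exact box was found in 6 of the 21 genes with a window that fell (28.6%) and in 4 of the 12 that did not pass (33.3%). Genes with and without an exact match were thus found on both sides, and inexact boxes such as that of Acta2 were left out of these counts. Over all genes with a window it occurred in 2.48% of 846 that fell, in 1.73% of 462 that rose and in 1.23% of 9268 that did not pass. The letters CATTCC, the core of sites for TEAD factors, were searched on both strands in the same windows and occurred in 9 of the 34 genes (26.5%, against 14.4% of the 27025 genes). They occurred in 7 of the 21 that fell (33.3%) and in 2 of the 12 that did not pass (16.7%). Over all genes with a window the shares were 18.2% of those that fell, 13.9% of those that rose and 12.2% of those that did not pass. The difference was not tested. The whole windows of Acta1 (chr8:123894776-123895025, minus strand), one of the genes with the largest fall, and of Srf itself (chr17:46556163-46556412, minus strand), with boxes in capitals, show how close to the start the boxes lie.
Acta1: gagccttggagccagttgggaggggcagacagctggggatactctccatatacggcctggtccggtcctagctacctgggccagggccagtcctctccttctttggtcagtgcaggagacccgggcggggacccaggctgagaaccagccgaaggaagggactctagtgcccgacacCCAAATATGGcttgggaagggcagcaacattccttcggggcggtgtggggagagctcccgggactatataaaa
Srf: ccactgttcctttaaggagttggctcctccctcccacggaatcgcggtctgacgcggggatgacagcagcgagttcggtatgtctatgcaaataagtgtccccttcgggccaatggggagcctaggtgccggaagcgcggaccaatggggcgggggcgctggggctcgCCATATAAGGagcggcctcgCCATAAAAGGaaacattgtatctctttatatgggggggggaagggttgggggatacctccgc

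Among the 6 actins, the skeletal, cardiac and smooth muscle alpha-actins fell and the cytoplasmic actins did not pass. Acta1, the skeletal muscle isoform, had signals of 668, 239 and 471 on the control arrays and 26.8, 36.5 and 24.2 on the shRNA arrays. All shRNA values lay far below the lowest control value, with 6.36% of the control mean remaining (log2 -3.58, SE 0.33, adjusted p = 0.000151). Actc1, the cardiac isoform, went from 246, 111 and 80.0 to 37.6, 27.9 and 25.7 (log2 -1.89, SE 0.36, adjusted p = 0.00669). Acta2, the smooth muscle alpha-actin that is a usual marker of stress fibres in myofibroblasts, went from 2379, 971 and 819 to 628, 296 and 257 (log2 -1.75, SE 0.41, adjusted p = 0.0191). In both genes control replicate 1 was more than 2-fold above the other control arrays, and shRNA replicate 1 was the highest of its group, yet the groups did not overlap. The Acta2 call was lost without Pcl2 shRNA replicate 2 (adjusted p = 0.0721) or replicate 3 (0.0605), in a range of 2.5e-05 to 0.0721 over the alternatives. Other Acta2 probe sets lay below background on all arrays with overlapping groups, so its change rests on 1 probe set. Actg2, the enteric smooth muscle isoform, was dim, with 72.5, 27.1 and 25.3 on control and 36.4, 13.3 and 12.1 on shRNA arrays (log2 -0.79, SE 0.42, adjusted p = 0.273), and passed with the replicate block (adjusted p = 0.0421, in a range of 0.0421 to 0.618). It repeats the pattern of a high replicate 1 in each group, and its groups overlap. Fibroblast markers moved with this pattern: 9 of the 16 were highest in replicate 1 of both groups (56.2%, against 15.4% of all genes tested). So were 12 of the 37 actin and adhesion genes (32.4%) and 10 of the 22 that fell (45.5%). The 10 were Acta2, Actc1, Actn1, Myl9, Vcl, Zyx, Fhl2, Pdlim7, Lpp and Ilk. Col1a1, a fibrillar collagen, had 251, 81.5 and 75.0 on control and 130.1, 21.9 and 3.49 on shRNA arrays, and S100a4 had 282, 32.4 and 29.9 and 257, 19.1 and 4.93. Without mismatch control replicate 1 the change of Acta2 was -1.28 (adjusted p = 0.0444) and that of Actc1 -1.45 (adjusted p = 0.0109), and without Pcl2 shRNA replicate 1 they were -2.14 (0.01) and -2.02 (0.0152). Leaving out an array does not measure fibroblast RNA in the others, and its part in these levels was not tested.

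The cytoplasmic actins, which build the filaments of every nonmuscle cell, gave overlapping groups. Actb had 5419, 9036 and 7562 on control and 6743, 7667 and 9690.1 on shRNA arrays, for a change of log2 0.15 (SE 0.21, adjusted p = 0.726) that became -0.016 with quantile normalization and -0.058 without mismatch control replicate 1. Its control probe sets, which read the 5′ end, middle and 3′ end of the same transcript, also gave overlapping groups, with 5688 to 8488 on control and 6186 to 8912 on shRNA arrays at the 5′ end. Actg1 had 6832, 9456 and 9058 on control and 6996, 7067 and 7487 on shRNA arrays (log2 -0.22, SE 0.16, adjusted p = 0.44), and passed with quantile normalization (0.0378, in a range of 0.0378 to 0.68). Actin transcripts are alike in their coding sequence, and the probe sets of Acta2 and Actg1 are of a type that can bind transcripts of more than 1 gene, so cross-hybridisation between isoforms was not separated here. Whether the isoforms differ from each other in their response was not tested.

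**Figure D3:**
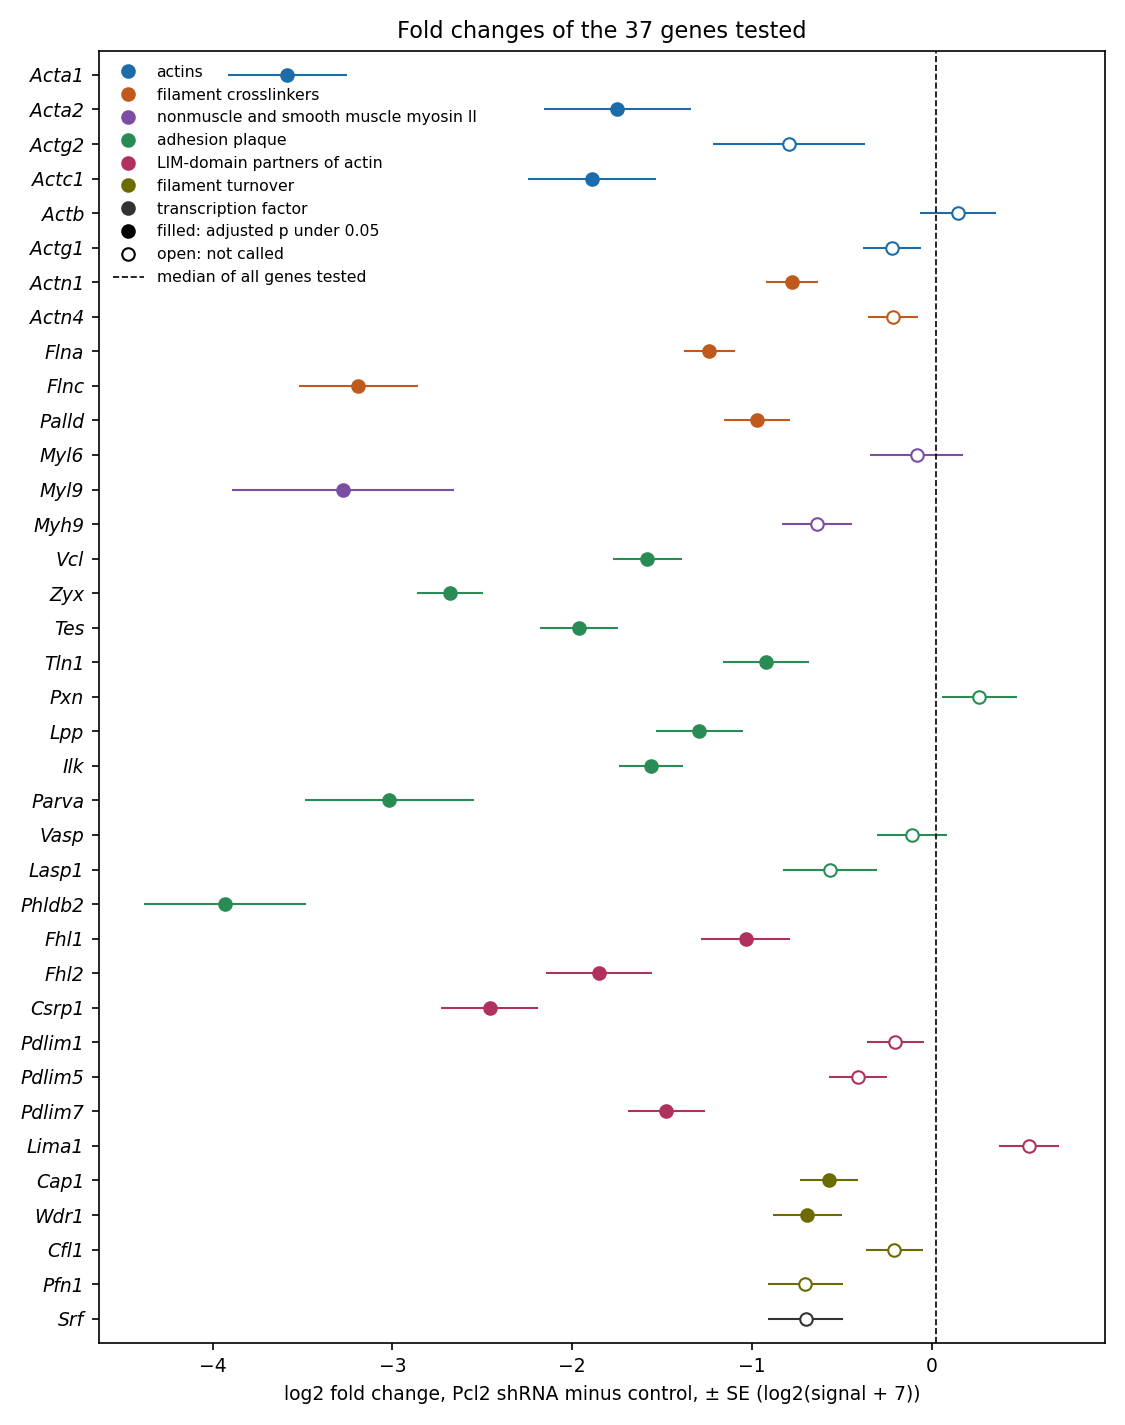
Log2 fold change of Pcl2 shRNA over control with its SE for the 37 genes tested, ordered and coloured by role; filled points passed an adjusted p of 0.05, and the dashed line is the median of all genes tested, 0.02. The filled points all lie to the left of the line, from -0.57 (Cap1) to -3.93 (Phldb2), and Lima1 lies farthest to the right at 0.54.

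Of the 5 crosslinkers, Flna, Flnc, Palld and Actn1 fell and Actn4 did not pass. Filamin A, which joins filaments into networks and binds integrin tails, had very even signals: 1461, 1379 and 1550.3 on control and 576, 651 and 624 on shRNA arrays (log2 -1.24, SE 0.14, adjusted p = 0.000522). Flnc, the muscle filamin, went from 118, 164 and 210 to 21.8, 9.68 and 5.75 (log2 -3.19, SE 0.33, adjusted p = 0.000292). Its shRNA values lie around background, with only replicate 1 above it. The other Flnc probe set gave -1.66; it was the brighter one when any 1 control array was left out, and the value was then -1.62, -1.90 and -1.46 without control replicate 1, 2 and 3, past the threshold each time. Palld, which organises dense regions of stress fibres, fell by 0.97 on the log2 scale (510 ± 103 to 253 ± 12.2, SE 0.18, adjusted p = 0.00661). The alpha-actinins cross-link antiparallel filaments: Actn1 went from 2600.3, 2232 and 2447 to 1556, 1420.5 and 1269 (log2 -0.78, SE 0.15, adjusted p = 0.00678), with -0.95 and -1.15 by its other probe sets. Actn4 gave 2942 ± 194 and 2537 ± 181 (log2 -0.21, SE 0.14, adjusted p = 0.382), its shRNA arrays all just below the control arrays.

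Myosin II is a hexamer of heavy chains, regulatory light chains and essential light chains. Myl9, the regulatory light chain of smooth muscle and of stress fibres, went from 396, 353 and 147 to 64.0, 28.5 and 2.81. Replicate 3 was the lowest of each group, and the groups stayed apart (log2 -3.27, SE 0.62, adjusted p = 0.00681). Myh9, the heavy chain of nonmuscle myosin IIA, went from 3648, 2840 and 4472 to 2808, 2091 and 2086 by its brightest probe set (log2 -0.64, SE 0.20, adjusted p = 0.0611). All 5 of its probe sets had non-overlapping groups, and the 4 others gave -0.40, -1.29, -1.38 and -1.62. Myh9 passed as the mean of its probe sets (adjusted p = 0.011, log2 -1.06), with the replicate block (0.0176), with quantile normalization (0.039), median centring (0.0428) or array weights (0.0186), and without mismatch control replicate 2 (0.0226), in a range of 0.011 to 0.216. Myl6, an essential light chain, had 81.7 ± 26.0 and 75.1 ± 14.9 (log2 -0.08, SE 0.26, adjusted p = 0.881). Its sign turned without mismatch control replicate 2 (0.13) or Pcl2 shRNA replicate 1 (0.05), and probe sets shared by Myl6 and its pseudogenes were not used.

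The adhesion plaque held the largest group, 11 genes, of which 8 fell and 3 (Pxn, Vasp and Lasp1) did not pass, with a median log2 fold change of -1.56. Talin and vinculin form the mechanical link from integrins to actin. Vcl went from 2710.1, 1886 and 2510 to 973, 703 and 686 (log2 -1.58, SE 0.19, adjusted p = 0.000752), and its other probe set gave -1.31. Tln1 went from 373, 469 and 683 to 241.3, 326 and 215 (log2 -0.92, SE 0.24, adjusted p = 0.0316). The Vcl groups were far apart and those of Tln1 close. The Tln1 call did not hold without mismatch control replicate 2 (0.063) or 3 (0.0765), without Pcl2 shRNA replicate 1 (0.0935) or 3 (0.0963), without a signal filter (0.0521), as the mean of probe sets (0.069), without the eBayes trend (0.0538) and with array weights (0.0651), in a range of 0.0105 to 0.0963.

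Ilk and Parva encode members of one complex that binds the tails of beta integrins. Ilk went from 671, 476 and 647 to 209, 186 and 194 (log2 -1.56, SE 0.18, adjusted p = 0.000522). Parva, alpha-parvin, went from 209, 84.2 and 360 to 28.4, 8.21 and 18.3 (log2 -3.02, SE 0.47, adjusted p = 0.00255). By its other probe set Parva was at or below background on all 3 shRNA arrays and at least 6.83-fold lower, the fold being that of the mean log2 control signal against the background level. Its paralogue Parvb, which is not one of the 38, rose from 163 ± 48.9 to 347 ± 43.8 (log2 1.09, SE 0.22, adjusted p = 0.00958); it was singled out after its value was seen.

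Zyx, Tes and Lpp encode LIM-domain proteins that gather on strained filaments and at mature adhesions. Zyx, zyxin, had the lowest p-value of the 38 genes and even signals in each group, 859, 834 and 698 on control and 131, 131 and 95.6 on shRNA arrays (log2 -2.68, SE 0.18, adjusted p = 3.09e-05). Tes, testin, went from 772, 428 and 638 to 149, 141 and 154 (log2 -1.96, SE 0.22, adjusted p = 0.00042), and Lpp from 386, 228 and 322 to 140, 137 and 90.4 (log2 -1.29, SE 0.24, adjusted p = 0.00649). For Lpp 6 further probe sets above the filter gave -0.16 to -1.63. Phldb2, an adaptor that ties microtubule ends to the rim of adhesions, showed the largest change of the 38, from 791, 253 and 897 to 52.6, 24.6 and 21.1 (log2 -3.93, SE 0.45, adjusted p = 0.000518). It ranked 12th from the lowest fold change among the 13095 genes.

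The adhesion genes that did not pass were those of paxillin, a scaffold, Vasp, which elongates filaments at adhesions, and Lasp1, which binds zyxin. Pxn had 424, 304 and 506 on control and 545, 420 and 500.4 on shRNA arrays (log2 0.27, SE 0.21, adjusted p = 0.474). Vasp gave 1064 ± 81.0 and 1005 ± 240.8 (log2 -0.11, SE 0.19, adjusted p = 0.782), and 0.11 without Pcl2 shRNA replicate 1. The 9 probe sets of Lasp1 ranged from -0.59 to 0.37, the brightest at -0.57 (SE 0.26, adjusted p = 0.205). Lasp1 passed without mismatch control replicate 2 (0.038) and without probe sets that can bind several genes (0.0319), in a range of 0.0319 to 0.485.

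**Figure D4:**
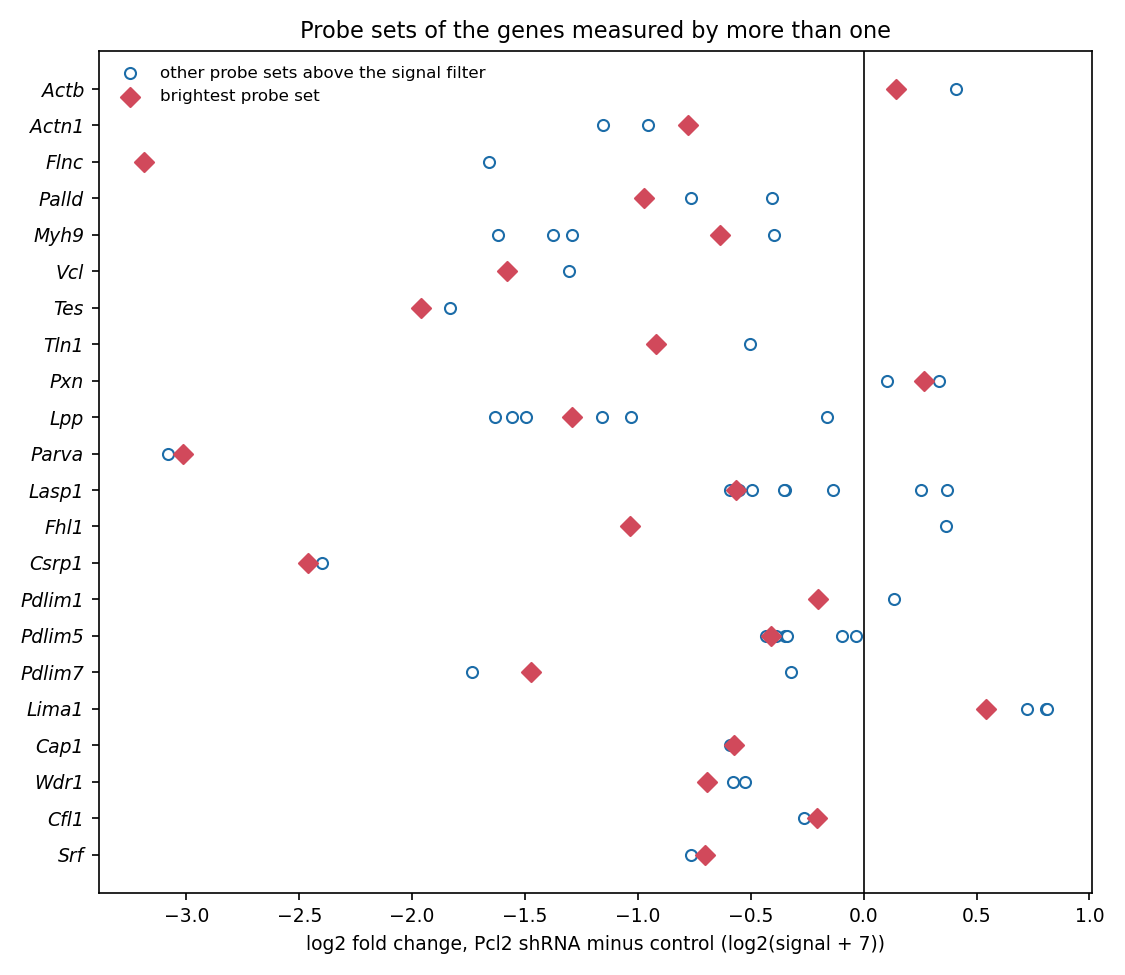
Log2 fold change of every probe set above the signal filter for the 22 genes with more than 1 such probe set; red diamonds are the brightest probe sets that represent the gene and open circles the others. Of 49 other probe sets, 45 had the sign of the brightest; the exceptions belong to Lasp1, Fhl1 and Pdlim1.

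The 8 remaining LIM-domain genes include scaffolds that shuttle between filaments and the nucleus. Csrp1, an alpha-actinin and zyxin partner, went from 1815, 1367 and 1938 to 225, 249 and 486 (log2 -2.46, SE 0.27, adjusted p = 0.00042), with -2.40 by its other probe set. Fhl2, a coregulator of Srf and other factors, went from 254, 114 and 217 to 59.2, 38.5 and 43.3 (log2 -1.85, SE 0.30, adjusted p = 0.00288). Fhl1 went from 1166, 753 and 1632 to 488, 561 and 597 (log2 -1.03, SE 0.25, adjusted p = 0.0214), but its second probe set gave 0.37, with overlapping groups. In these genes control replicate 2 was the lowest control array, and the shRNA arrays still lay below it. The Fhl1 call was lost as the mean of probe sets (adjusted p = 0.47, log2 -0.33) and without mismatch control replicate 1 (0.0623), Pcl2 shRNA replicate 1 (0.076) or Pcl2 shRNA replicate 2 (0.0658), in a range of 0.00339 to 0.47. Fhl3 was at or below background on all 3 shRNA arrays and on 2 of 3 control arrays, so no fold is given.

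Proteins with a PDZ and LIM domains sit on alpha-actinin. Pdlim7 fell from 704, 597 and 511 to 276, 206 and 165 (log2 -1.48, SE 0.21, adjusted p = 0.00169), with -1.74 and -0.32 by other probe sets. Pdlim5 (387 ± 26.2 and 291 ± 33.5, log2 -0.41, SE 0.16, adjusted p = 0.137) and Pdlim1 (1043 ± 105 and 906 ± 114, log2 -0.20, SE 0.16, adjusted p = 0.474) did not pass; Pdlim5 did with the replicate block (0.0461, in a range of 0.0461 to 0.416). Lima1, which binds and stabilises filaments and is also called Eplin, was the 1 gene with every shRNA array above every control array: 531, 423 and 560 on control and 738, 658 and 809 on shRNA arrays (log2 0.54, SE 0.17, adjusted p = 0.0617). Its other probe sets above the filter gave 0.73, 0.81 and 0.81, also without overlap. Lima1 passed as the mean of probe sets (0.0269), without probe sets that can bind several genes (0.0301) and with the replicate block (0.00936), in a range of 0.00936 to 0.173.

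The turnover proteins are used by every cell that moves actin. Cap1, which recycles monomers, went from 1485, 1620.2 and 1479 to 915, 950 and 1236 (log2 -0.57, SE 0.16, adjusted p = 0.0418), and Wdr1, which helps cofilin to disassemble filaments, from 1292, 1142 and 842 to 660.4, 760 and 581 (log2 -0.69, SE 0.19, adjusted p = 0.0393). Both lay just inside the threshold. The Cap1 call was lost without each array but Pcl2 shRNA replicate 3 (0.0676 to 0.176), without the eBayes trend (0.0839), with median centring (0.0543) and with dim genes kept in (0.058), in a range of 0.0138 to 0.176. That of Wdr1 was lost without each array but mismatch control replicate 3 (0.068 to 0.129), without a signal filter (0.0588), as the mean of probe sets (0.184) and without the trend (0.0725), in a range of 0.00448 to 0.184. Profilin, Pfn1, which feeds monomers to growing ends, lay just outside: 2384, 4007 and 2457 on control and 1617, 2012 and 1662 on shRNA arrays (log2 -0.70, SE 0.21, adjusted p = 0.0531). It passed with quantile normalization (0.0192), a filter at the 60th percentile (0.0487), the replicate block (0.00477), signals floored at background (0.0476) and without mismatch control replicate 1 (0.047) or 3 (0.0495), in a range of 0.00477 to 0.159. Cofilin, Cfl1, gave 4186 ± 671 and 3602 ± 322 (log2 -0.21, SE 0.16, adjusted p = 0.465).

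Srf itself had 325, 381 and 250.4 on control and 178, 231 and 168 on shRNA arrays. The groups did not overlap, and the change (log2 -0.70, SE 0.21, adjusted p = 0.0511) lay just outside the threshold; its other probe set gave -0.77. Srf passed with the replicate block (0.0048) and without mismatch control replicate 3 (0.024), and under 5 further settings with adjusted p between 0.0297 and 0.05, in a range of 0.0048 to 0.141 over all alternatives.

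Over the 37 genes, control replicates 1, 2 and 3 were the highest control array for 16, 9 and 12 genes (33.0%, 28.9% and 38.1% of all genes tested). Among the 22 genes that fell the numbers were 13, 1 (Cap1) and 8. Control replicate 2 was the lowest control array for 13 of the 22 (59.1%, against 38.8% of all genes tested). It was also the lowest for the trophectoderm and simple epithelium markers Krt8 (4329, 2386 and 3935), Krt18, Krt19, Krt7, Cdx2 and Tfap2c, but not for Eomes. For fibroblast markers it was the lowest in 10 of 16 (62.5%). Joint variation was not tested. The median SD of log2 values was 0.33 among control and 0.25 among shRNA arrays over the 37 genes, beside 0.26 and 0.21 over all genes tested. The control SD was the larger in 24 of the 37 genes (64.9%, against 60.3% of all genes).

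Other genes of the same machinery were taken from lists written by function, with earlier results of these arrays known; 8.16% of all genes tested fell and 4.46% rose. Further targets of Srf and its MRTF coactivators gave the highest share: 16 of 27 fell (59.3%), 0 rose by limma (0 at an unadjusted p below 0.05), and the median was -1.36. The lists share genes. Itgb1, which fell, is counted again with the other focal adhesion genes. Cttn, which fell, and Dstn, which did not pass, are counted again with the genes of actin assembly and turnover. Tagln, which binds and stabilises filaments, was at 2232, 2085 and 2812 on control and 186, 48.7 and 29.5 on shRNA arrays (log2 -5.01, SE 0.48, adjusted p = 0.000184). Ccn1, a secreted matricellular protein, went from 1892, 789 and 1698 to 131, 59.2 and 46.4 (log2 -4.12, SE 0.39, adjusted p = 0.000168). Cnn1, a calponin of smooth muscle, was at or below background on all 3 shRNA arrays and at least 9.78-fold lower on the same basis (adjusted p = 2.92e-05). Targets that Srf shares with ternary complex factors, many of them immediate early genes, were listed together with the factors Elk1, Elk3 and Elk4. Of these 15 genes 5 fell (33.3%), 0 rose by limma, and 1 was higher at an unadjusted p below 0.05. The factors Elk1, Elk3 and Elk4 did not pass. The falls were led by the phosphatase gene Dusp5 (log2 -3.04, SE 0.22, adjusted p = 3.94e-05), Fos (-1.44, SE 0.38, adjusted p = 0.035) and Ier3 (-1.27, SE 0.19, adjusted p = 0.00238). The Fos call did not hold without mismatch control replicate 2 (0.1) or 3 (0.0828), Pcl2 shRNA replicate 2 (0.0864) or 3 (0.101), with dim genes kept in (0.0664) and without the eBayes trend (0.0606), in a range of 0.00352 to 0.101.

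Of 49 other focal adhesion genes 15 fell (30.6%), 2 rose (Parvb and Kank2) and 32 did not pass. The largest falls were those of Tgfb1i1, a paxillin relative also called Hic-5 (212 ± 125 to 33.1 ± 10.2, log2 -2.32, SE 0.39, adjusted p = 0.0037), Pdlim2 (log2 -2.11, SE 0.30) and Pdlim3 (log2 -2.09, SE 0.29). Of 36 genes of actin assembly and turnover 7 fell (19.4%), 2 rose (Twf2 and Enah) and 27 did not pass. Gelsolin, Gsn, which severs and caps filaments, fell by 2.45 on the log2 scale (416 ± 158 to 68.9 ± 23.1, SE 0.33, adjusted p = 0.00114), followed by the capping protein Capg (log2 -1.41, SE 0.18) and Marcks, which binds filaments at the membrane (log2 -1.22, SE 0.20). With the replicate block 12 of the assembly genes fell, 5 of the other focal adhesion genes rose, and 8 genes of the ternary complex factor list fell and 1 rose. The number of other focal adhesion genes that rose was 1 without any one of the shRNA arrays or without mismatch control replicate 2 or 3. The number of genes of the ternary complex factor list that fell was 3 without any one of the shRNA arrays or without mismatch control replicate 3. The number of assembly genes that rose was 1 without Pcl2 shRNA replicate 2.

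**Figure D5:**
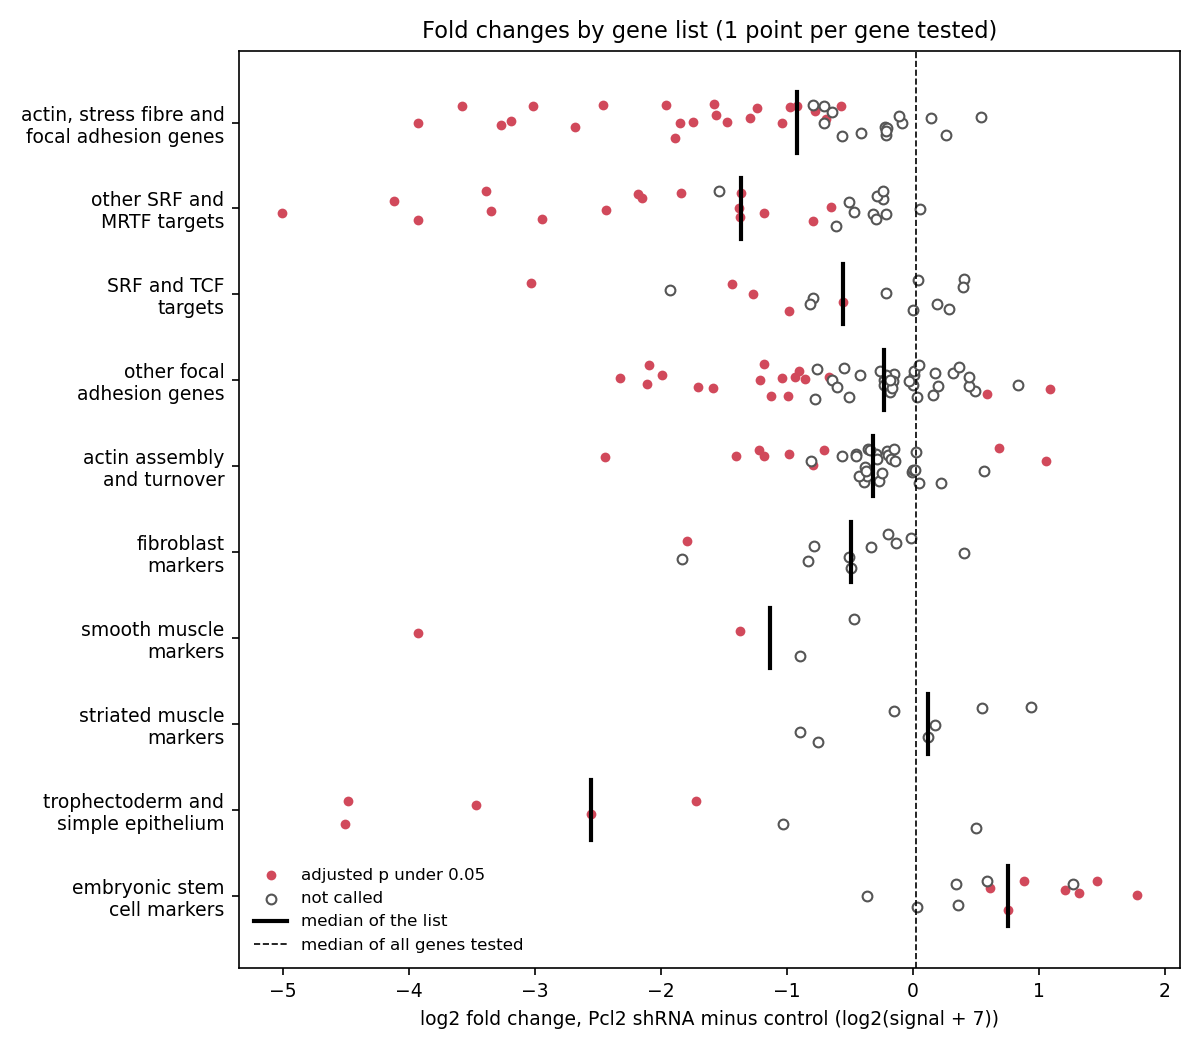
Log2 fold change of each gene tested (1 point per gene, spread vertically only for visibility) in the list described here, 4 further lists of the same machinery and 5 marker lists; red points passed an adjusted p of 0.05, black bars are list medians and the dashed line is the median of all genes. The median is -0.92 for the actin, stress fibre and focal adhesion genes, -1.36 for other SRF and MRTF targets, -0.49 for fibroblast markers and 0.76 for embryonic stem cell markers.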

How the data were processed

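RNA of 6 samples was measured on Affymetrix Mouse 430 2.0 arrays. Per the labels, the authors analysed the scans in GCOS 1.4. MAS5 is the algorithm named in the submitters' processing notes. From its range each deposited number is a linear intensity; its scaling (a mean of 150.001 on each array after trimming 2% at each end) was kept, and further settings were not given. No detection calls were used, and the number of arrays limits the precision.

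Of 45101 probe sets, 34945 named 1 gene, 932 several and 9160 none, and 64 were controls; the GRCm38.p6 gene table held the genes of 34741. Signals were taken as log2(signal + 7), near the 20th percentile (7.15), so folds of dim genes are understated. Single-gene probe sets with a mean at or above the 40th percentile (a signal of 20.2) were kept, 23186 in all, and the brightest represented each of 13095 genes. limma 3.58.1 in R 4.3.3 (lmFit, eBayes with trend, two-sided) gave Benjamini-Hochberg adjusted p-values, with a threshold of 0.05, after a check on simulated data. Alternatives changed 1 choice at a time: normalization or centring, pseudocount, filter, choice of probe set, eBayes options, array weights, a floor at background, the replicate block, and each array left out.

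The members, lists, tests and alternatives were chosen with earlier results of these data known. The genes named were all members, Mtf2 and, per list, the 3 called genes with the largest change and groups that do not overlap; the marker genes, Parvb, Kank2, Twf2 and Enah were named after their values were seen. Deviations from the group means correlated at 0.25 to 0.397 for samples with the same replicate number and at -0.382 to -0.001 for others, so the numbers may pair the samples, which no label states; reported values are from the fit without pairs, and the block is an alternative. The result of 1 further list is not reported here.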

Additional observations from a re-analysis of the deposited data

How the results depend on the processing

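Over 19 alternatives the number of the 37 genes that fell stayed between 18 and 27 (22 as reported), and 17 of the 22 fell under every alternative that measured them; the other 5, Acta2, Fhl1, Cap1, Tln1 and Wdr1, missed the threshold under at least 1. The number that rose was 0, and 1 (Lima1) with the replicate block, with the mean of probe sets and without probe sets ending in _s_at or _x_at. Leaving out single arrays gave 18 to 22 genes that fell and 0 that rose. Over all genes the count of changed genes was 1652, 3113 with the replicate block and 979 to 1598 without single arrays, lowest without Pcl2 shRNA replicate 2. Pairing by replicate number ended no call of a member. Of 699 values of single members under alternatives, 637 kept their direction and side of the threshold, 30 lost and 27 gained it, and 5 turned: Actb with quantile normalization (-0.016) and without mismatch control replicate 1 (-0.058, in a range of -0.058 to 0.31 without single arrays), Myl6 without mismatch control replicate 2 (0.13) and Pcl2 shRNA replicate 1 (0.05, in a range of -0.30 to 0.13), and Vasp without Pcl2 shRNA replicate 1 (0.11, in a range of -0.22 to 0.11). Among the further lists, 12 of the assembly genes fell with quantile normalization and 8 genes of the ternary complex factor list with array weights. Of the other focal adhesion genes 1 rose with quantile normalization, median centring, no filter, the mean of probe sets or no trend, and 3 with array weights. With median centring 1 assembly gene rose. The causes were not tested. Signals near or below 20.3 limit the folds of Flnc, Parva, Myl9, Phldb2, Acta1, Actc1 and Actg2, and Fhl3 was given no fold.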
